A study of Mus musculus with 3 samples.

Results

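The 10 genes described here are grouped as feedback genes of the ERK kinase pathway. They encode the dual-specificity phosphatases Dusp1, Dusp4, Dusp5, Dusp6 and Dusp8, the Sprouty proteins Spry1, Spry2 and Spry4, and the Sprouty-related proteins Spred1 and Spred2. They are 10 of the 18194 genes on the array, taken as all 27 probe sets whose only gene symbol in the platform annotation is one of them. The cells were melan-a NRAS61K cells, an immortalized mouse melanocyte line that carries the oncogene NRAS61K, kept in medium with dialyzed serum and given doxycycline (1 µg/ml) over 6, 14 or 28 days. All groups share the oncogene and the doxycycline. Each time point had 1 Affymetrix array, and the series text counts 4 samples, of which these 3 were analysed here. No untreated array was analysed here, and the labels do not say what doxycycline controls in these cells, whether the line is 1 clone or whether dishes were pooled.

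Growth factor receptors and Ras pass their signal through the kinases RAF, MEK and ERK, and active ERK enters the nucleus and turns on transcription. Among the genes switched on are the pathway's own brakes. Dual-specificity phosphatases remove phosphate from the threonine and tyrosine of the activation loop of MAP kinases, while Sprouty and Spred proteins act upstream, between receptor and RAF. In melanocytic cells with mutated RAS or RAF, transcripts of this set are commonly used as a readout of ERK output. Transcript levels do not measure the phosphorylation of ERK itself.

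Stretches of DNA just before the transcription start of 4 of these genes are shown because these genes differed most between the arrays. They are RefSeq sequences of build GRCm38.p6, 250 bases each, 5′ to 3′ on the gene's strand and ending at the base before the annotated start. Capitals mark the searched motifs found in them, on either strand.
Dusp1: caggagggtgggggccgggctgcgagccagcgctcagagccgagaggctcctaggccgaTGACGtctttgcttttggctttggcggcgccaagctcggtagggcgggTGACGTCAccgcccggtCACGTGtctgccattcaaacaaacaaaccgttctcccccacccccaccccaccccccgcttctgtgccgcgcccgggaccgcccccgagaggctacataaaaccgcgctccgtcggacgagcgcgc
Dusp5: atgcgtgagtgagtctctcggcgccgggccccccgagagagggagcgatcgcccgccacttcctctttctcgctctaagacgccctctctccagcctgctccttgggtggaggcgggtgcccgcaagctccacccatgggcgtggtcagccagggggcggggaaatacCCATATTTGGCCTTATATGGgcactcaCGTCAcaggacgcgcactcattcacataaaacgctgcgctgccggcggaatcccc
Dusp8: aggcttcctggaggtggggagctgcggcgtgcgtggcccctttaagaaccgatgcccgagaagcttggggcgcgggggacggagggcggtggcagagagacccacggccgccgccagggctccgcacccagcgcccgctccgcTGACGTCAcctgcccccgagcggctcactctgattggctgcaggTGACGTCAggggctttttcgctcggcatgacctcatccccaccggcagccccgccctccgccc
Spry1: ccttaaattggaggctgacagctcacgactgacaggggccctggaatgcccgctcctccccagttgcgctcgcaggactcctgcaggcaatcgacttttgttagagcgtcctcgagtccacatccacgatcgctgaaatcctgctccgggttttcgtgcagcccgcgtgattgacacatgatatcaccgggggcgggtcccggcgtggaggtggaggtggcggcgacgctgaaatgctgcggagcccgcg
They lie at chr17:26508473-26508722 (minus strand) for Dusp1, chr19:53528895-53529144 (plus strand) for Dusp5, chr7:142095285-142095534 (minus strand) for Dusp8 and chr3:37639697-37639946 (plus strand) for Spry1. The motifs searched were the full cyclic AMP response element TGACGTCA, its core TGACG, the AP-1 site TGANTCA, the ETS core CCGGAA, the E-box CACGTG and the CArG box of serum response elements. RefSeq sequences were matched for 8 of the 10 genes, all but Dusp4 and Spry4.

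The full cyclic AMP response element occurred once before Dusp1, at positions -143 to -136 from the start, and at -107 to -100 and -63 to -56 before Dusp8. It was present in 1.55% of all 32851 sequences of that length in the table. Dusp1 also held a separate core site at -191 to -187, a motif found in 17.8% of sequences and counted again inside each full element, and an E-box at -126 to -121, found in 6.02%. Dusp5 held a pair of neighbouring CArG boxes at -82 to -73 and -72 to -63, a motif in 1.47% of sequences, and a core site at -55 to -51. Before Spred2 there was a core site at -51 to -47. None of the searched motifs was in the sequences of Spry1, Spry2, Dusp6 and Spred1, while AP-1 sites (6.75% of sequences) and ETS cores (12.0%) were in none of the 8. The 4 sequences shown have a G and C content of 62.4% to 71.6%, against a median of 52.4% over all sequences. The motif shares above are over all sequences and were not matched for this content. These matches describe letters in a short window and show no binding.

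Values are read as log2, a base inferred from control probes, and the 3 arrays had been brought to one common distribution before deposit, so every difference is relative to the other genes. A fold below takes the base as 2. Each array's background was set at the level that 90% of 83 probe sets for 57 genes not used by pigment cells did not exceed, which came to 22.94, 22.74 and 22.92 for days 6, 14 and 28. A gene is represented by its brightest probe set, was described when this lay above the background on either array compared, and was counted as apart at 2-fold, a log2 difference of 1. Since each time point rests on a single array, no spread between cultures and no test could be had. The error given instead is the SD among a gene's probe sets in their differences, which leaves out variation between cultures. It was 0.31 for day 28 minus day 6, 0.30 for day 14 minus day 6 and 0.24 for day 28 minus day 14.

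Of the melanocyte markers, 8, 7 and 7 of 10 lay above the background at days 6, 14 and 28. Mitf, Dct, Mlana, Sox10 and Slc45a2 did so on all arrays, while Tyr and Kit were at or below it on all of them. The median log2 difference of the 8 described was 2.27 for day 14 minus day 6 and 1.5 for day 28 minus day 6, and that of 7 was -0.70 for day 28 minus day 14. At day 14, Dct was 40.6-fold and Mlana 28.4-fold above day 6 while Ednrb was 2.74-fold below it, and Tyrp1 was 4.62-fold lower at day 28 than at day 14. Markers of other cells were above the background for 3 to 4 of 6 fibroblast, 2 of 5 keratinocyte, 4 of 5 macrophage, 1 of 4 endothelial and 2 to 3 of the 4 measured Schwann and glial genes, with Lum, Krt14, Ptprc, Pecam1 and Gfap below it on all arrays. Some of these markers moved: against day 6, the endothelial Cdh5 was 18.7-fold and the macrophage Lyz2 6.70-fold higher at day 28, the glial S100b was 7.09-fold higher at day 14, and the glial Mbp, below the background at day 28, was at least 2.02-fold lower there. Cd68, another macrophage marker, stood 4.03-fold higher at day 28 than at day 14. The part of other cells in the differences below was not tested. Proliferation genes were lower at both later times. For day 28 minus day 6, 10 of 13 were at least 2-fold lower, where 4.02% of all described genes were, with a median log2 difference of -1.53. For day 14 minus day 6, 6 of 13 were, where 3.88% of all described genes were, with a median of -0.89. The 3′ minus 5′ log2 difference of Actb, a sign of RNA integrity, was 0.58, 0.76 and 0.75 at days 6, 14 and 28, and its part was not tested either.

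All 10 genes had a brightest probe set above the background on at least 2 arrays, and 9 of them on all 3. Of the 27 probe sets, 19 were above the background on all arrays, 3 on some and 5 on none. The plot of all probe sets by day shows how their courses differ.

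**Figure D1:**
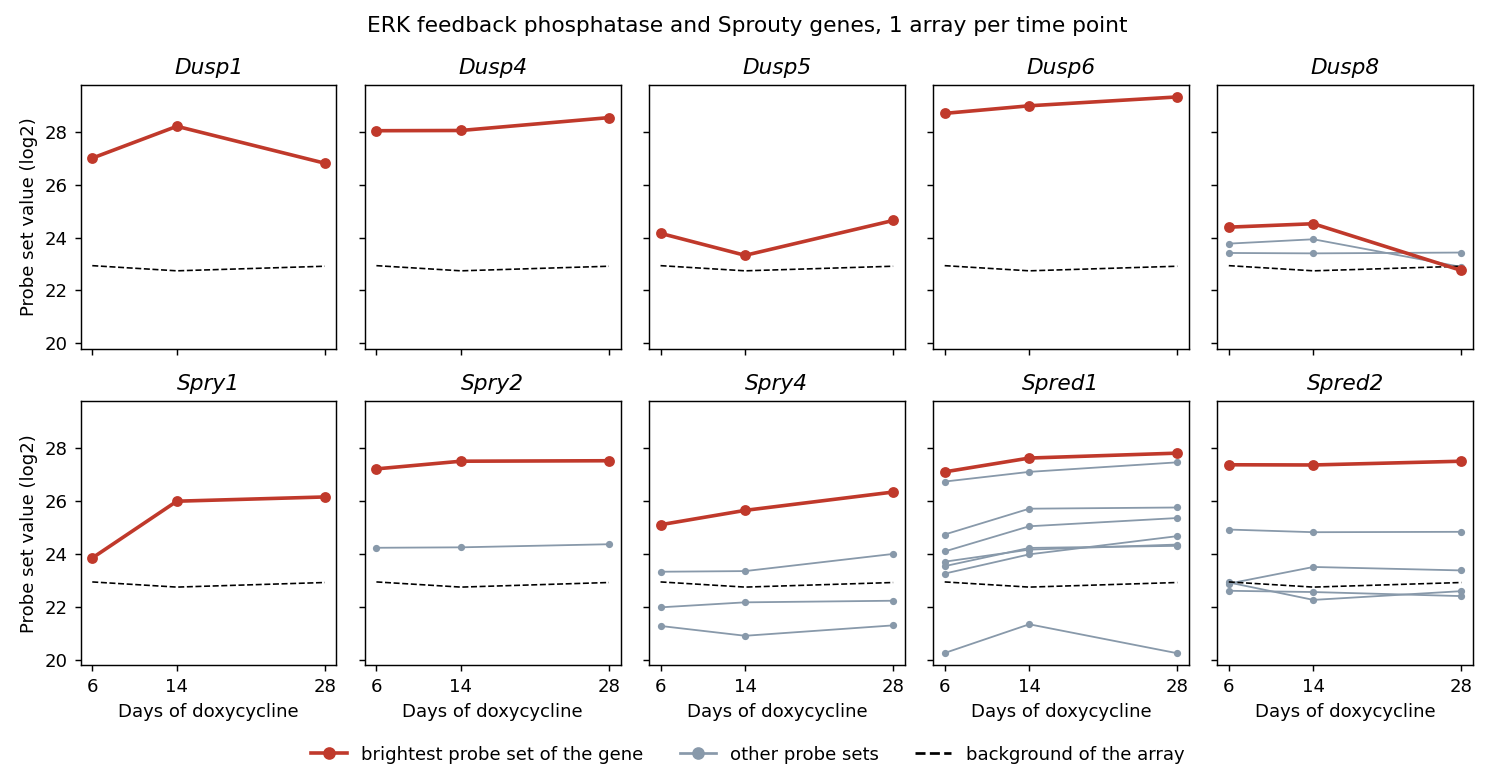
Log2 values of all 27 probe sets of the 10 genes (vertical axis) against days of doxycycline (horizontal axis), 1 array per point, with the brightest probe set of each gene in red, the others in grey and the background of each array dashed. On the brightest probe sets, Spry1 steps up between days 6 and 14, Dusp1 peaks and Dusp5 dips at day 14, and Dusp8 meets the background at day 28. The brightest probe set of each other gene lies within 1.24 log2 units over the 3 arrays.

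Day 28 against day 6 asks how the feedback genes stood after the longest treatment. Spry1 and Spry4 were at least 2-fold higher at day 28 and Dusp8 was at least 2-fold lower, while the other 7 genes differed by -0.19 to 0.71 on the log2 scale. In all, 2 of 10 genes were at least 2-fold higher, where 6.62% of the 11406 described genes were, and 1 of 10 was at least 2-fold lower, where 4.02% were. With probe sets averaged, Spry4 (0.95) and Dusp8 (-0.83) were under 2-fold, which leaves 1 gene higher and 0 lower. At 1.5-fold, 4 genes were higher, with Spred1 and Dusp6 added, where 15.9% of described genes were, and 1 was lower, where 12.2% were. The median log2 difference of the 10 genes was 0.49, against 0.01 for all described genes. Of the 10 differences, 8 were above 0 and also above that median of all described genes. Among these 8, Spry2 (0.31) and Spred2 (0.13) did not exceed the spread between probe sets.

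Day 14 against day 6 covers the first step, and it shares the day 6 array with the comparison before. Spry1 and Dusp1 were at least 2-fold higher at day 14, 2 of 10 genes where 5.48% of 11475 were, and 0 of 10 were 2-fold lower, where 3.88% were. At 1.5-fold the same 2 genes were higher, where 13.6% of described genes were, and Dusp5 was lower, where 14.2% were. The median of the 10 genes was 0.29, against -0.03 for all described genes.

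Day 28 against day 14 covers the second step. Dusp5 was at least 2-fold higher at day 28, 1 of 10 genes where 2.18% of 11495 were, and Dusp8 and Dusp1 were at least 2-fold lower, 2 of 10 where 1.44% were. With probe sets averaged, Dusp8 (-0.93) was under 2-fold and 1 gene was lower. At 1.5-fold, Spry4 joined Dusp5 among the higher genes, where 7.50% of described genes were, and the lower genes were again Dusp8 and Dusp1, where 4.37% were. The median was 0.17 for the 10 genes and 0.03 for all described genes. With a handful of genes, 1 gene alters such a share by much, and these counts describe single arrays.

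**Figure D2:**
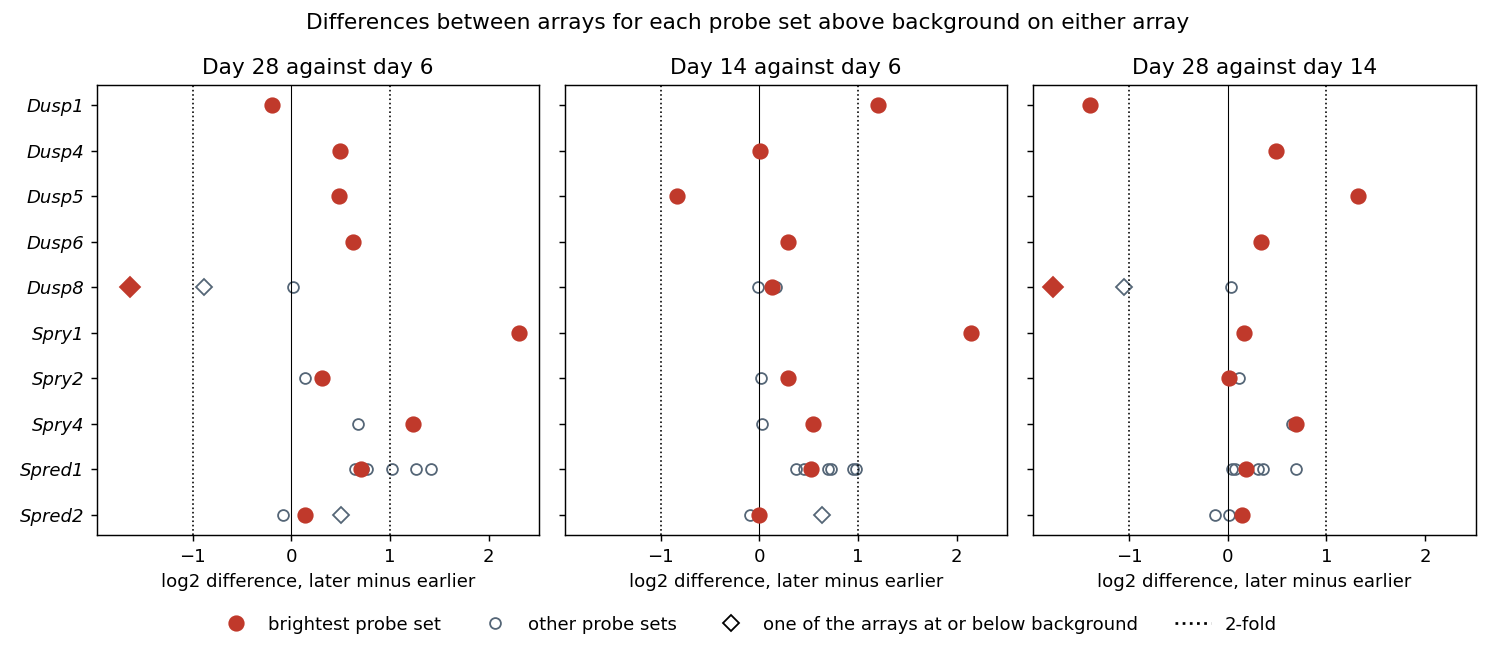
Log2 differences, later minus earlier (horizontal axis), of each probe set above the background on either array, for day 28 against day 6 (left), day 14 against day 6 (middle) and day 28 against day 14 (right). Red marks the brightest probe set of each gene, open symbols the others, diamonds pairs with one array at or below the background, and dotted lines 2-fold. Spry1 stands at 2.31 and 2.15 in the first 2 panels and at 0.16 in the right one, where Dusp1 and Dusp8 stand lowest and Dusp5 highest.

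Among the Sprouty genes, which restrain signalling from receptors to Ras and RAF, Spry1 differed most. Its single probe set read 23.84, 25.99 and 26.15 at days 6, 14 and 28. The day 6 array was low, 0.91 above its background, and both later arrays were high and close to each other. Spry1 stood 4.95-fold higher at day 28 than at day 6, and 120 of the 11406 described genes had a larger log2 difference. It stood 4.43-fold higher at day 14 than at day 6, with 102 of 11475 genes larger. Its difference of 0.16 between days 28 and 14 was below the spread between probe sets of 0.24. With a single probe set there is no second measure of Spry1 on these arrays.

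Spry4, whose product also acts upstream of RAF, read 25.10, 25.65 and 26.34 at days 6, 14 and 28 on its brightest probe set. Each array was higher than the one before. It stood 2.36-fold higher at day 28 than at day 6, and the steps were 0.54 for day 14 minus day 6 and 0.69 for day 28 minus day 14. A second probe set above the background read 23.32, 23.35 and 24.00, so it had only the later step, and its difference of 0.67 between days 28 and 6 was under 2-fold. The remaining pair of Spry4 probe sets lay below the background on all arrays. Spry2, a Sprouty that also blocks growth factor signalling to ERK, read 27.22, 27.51 and 27.52, and its differences of 0.31, 0.29 and 0.02 in the 3 comparisons did not exceed the spread between probe sets. Its other probe set differed by 0.13, 0.02 and 0.12. Of the 3 Sprouty genes, 2 were at least 2-fold higher at day 28 than at day 6, where 6.62% of described genes were. Spry4, 1 of these 2, was under 2-fold with its probe sets averaged (0.95).

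Spred1, which brings the Ras inhibitor neurofibromin to the membrane, is measured by 8 probe sets, the most of the set. The brightest read 27.10, 27.63 and 27.81 at days 6, 14 and 28, which made it 1.63-fold higher at day 28 than at day 6. All 7 probe sets above the background on every array were higher at day 28 than at day 6, by 0.65 to 1.42, and 3 of them by 2-fold or more. The same 7 were higher at day 14 than at day 6, by 0.37 to 0.98, and higher at day 28 than at day 14, by 0.05 to 0.69. The eighth was below the background throughout. Spred1 probe sets therefore agree on the direction in each comparison but disagree on whether the difference from day 6 reached 2-fold. Its relative Spred2 read 27.37, 27.36 and 27.51, with differences of 0.13, -0.01 and 0.14 in the 3 comparisons, all below the spread between probe sets. Of its 4 other probe sets, 1 was above the background on all arrays and differed by -0.09, -0.10 and 0.01. Another, at or below the background at day 6 only, differed by 0.50 for day 28 minus day 6 and 0.63 for day 14 minus day 6, so the probe sets of Spred2 disagree.

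Among the phosphatases, Dusp6 and Dusp4 differed least over the course. Dusp6, a cytoplasmic phosphatase specific to ERK, read 28.70, 28.99 and 29.32 at days 6, 14 and 28, each array higher than the one before. It stood 1.54-fold higher at day 28 than at day 6, a log2 difference of 0.62. Dusp4, a nuclear phosphatase of ERK and JNK, read 28.04, 28.05 and 28.54, so days 6 and 14 were alike and day 28 was higher, 1.40-fold above day 14. Both genes have 1 probe set.

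Dusp1, a nuclear phosphatase of p38, JNK and ERK and an immediate early gene, peaked at day 14. It read 27.01, 28.21 and 26.81 at days 6, 14 and 28. It stood 2.30-fold higher at day 14 than at day 6 and 2.63-fold lower at day 28 than at day 14, while days 28 and 6 differed by -0.19, within the spread between probe sets. Only 67 of the 11495 described genes had a lower log2 difference between days 28 and 14. A course of 2-fold higher and then 2-fold lower was shown by 71 of 11658 genes above the background on any array (0.609%). This course was counted after the values were seen, so its share is a description and no test.

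Dusp5, a nuclear phosphatase specific to ERK, had the opposite course. It read 24.16, 23.33 and 24.65 at days 6, 14 and 28, with the day 14 array lowest and 0.59 above its background. It was 1.78-fold lower at day 14 than at day 6 and 2.49-fold higher at day 28 than at day 14, and 122 of 11495 genes had a larger difference in the second step. A course of at least 1.5-fold lower and then 2-fold higher was shown by 80 of 11658 genes (0.686%). These limits were taken from the values of Dusp5 itself, and with 2-fold in both steps 47 genes had such a course (0.403%), Dusp5 not among them. The day 14 array enters both steps, once added and once subtracted, so a fault in it alone would draw a peak or a dip. Dusp1 and Dusp5 each have 1 probe set.

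Dusp8, a phosphatase acting mainly on JNK and p38, was the only one of the 10 genes at or below the background on an array. Its brightest probe set read 24.40, 24.52 and 22.76 at days 6, 14 and 28, level at first and below the background of 22.92 at the end. Taken against the background, it was at least 3.05-fold lower at day 28 than at day 14 and at least 2.79-fold lower than at day 6. A second probe set read 23.77, 23.94 and 22.89 and was also below the background at day 28, with differences of -1.05 from day 14 and -0.88 from day 6. The remaining one, whose ID marks it as shared between transcripts, read 23.42, 23.40 and 23.43. Dusp8 is thus lower at day 28 on 2 of its 3 probe sets, and on the other it differs by 0.02 from day 6 and 0.03 from day 14. Of the 8 upstream sequences used, those with a full cyclic AMP response element belong to Dusp8 and Dusp1. These are the genes 2-fold lower at day 28 than at day 14, an overlap seen after the values were known and not tested.

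**Figure D3:**
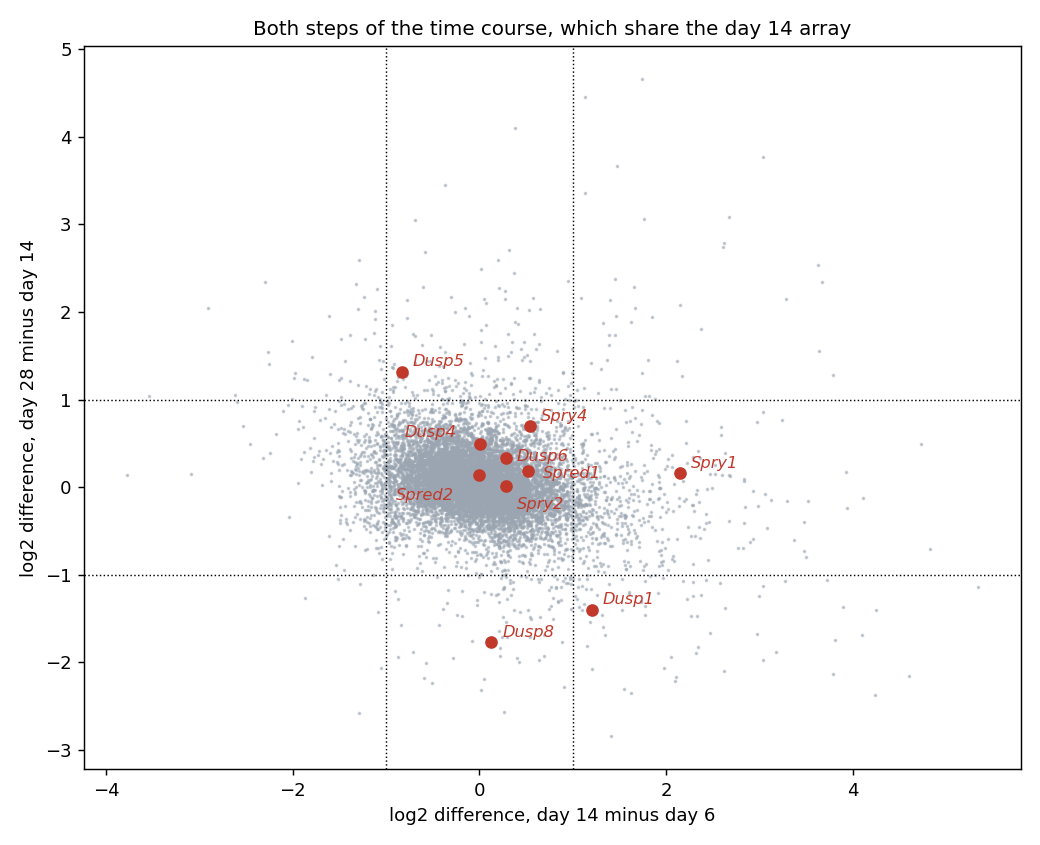
Log2 difference of day 14 minus day 6 (horizontal axis) against day 28 minus day 14 (vertical axis) for the brightest probe set of 11658 genes above the background on any array (grey dots), with the 10 feedback genes in red and dotted lines at 2-fold. Spry4, Spred1, Dusp4, Dusp6, Spry2 and Spred2 lie within 2-fold on both axes, as did 88.4% of all genes, and Dusp1, Dusp5, Dusp8 and Spry1 lie outside. Both axes use the day 14 array.

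By direction alone, 6 of the 10 genes (Dusp4, Dusp6, Spry1, Spry2, Spry4 and Spred1) were higher in each step, a course shown by 21.2% of the 11658 genes, and 0 were lower in each step, as were 18.4% of all genes. Some of these steps are tiny, such as 0.01 for Dusp4 between days 14 and 6 and 0.02 for Spry2 between days 28 and 14. Dusp1 and Dusp8 were higher and then lower, and Dusp5 and Spred2 lower and then higher.

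The 5 genes with the courses nearest to that of Spry1, by distance over both steps and among genes above the background on all arrays, were Ahr, Itpk1, Podxl2, Cyp2j9 and C1ra, at distances of 0.10 to 0.20 log2 units. Ahr, the aryl hydrocarbon receptor gene, read 24.22, 26.40 and 26.47 on its brightest probe set and 23.83, 23.22 and 23.74 on another, so its probe sets disagree. Itpk1, an inositol phosphate kinase gene, read 24.02, 26.09 and 26.32 at days 6, 14 and 28. With 3 arrays, likeness in course is a weak description.

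Of the other MAP kinase phosphatases, Dusp2, Dusp7, Dusp9, Dusp10 and Dusp16, all 5 were above the background. Dusp2, a nuclear phosphatase, read 24.30, 24.14 and 26.18 at days 6, 14 and 28 and stood 3.68-fold higher at day 28 than at day 6 and 4.11-fold higher than at day 14. Only its day 28 array was high. Dusp10, which acts on JNK and p38, read 24.61, 23.17 and 23.79 and was 2.70-fold lower at day 14 than at day 6. The other 3 were under 2-fold in each comparison. Among 15 atypical and other DUSPs, 1 of 12 described was 2-fold apart in any comparison. This was Dusp14, 2.50-fold lower at day 14 than at day 6, where 3.88% of all described genes were at least 2-fold lower. Spred3, the remaining Spred, read 24.65, 24.21 and 25.41 and stood 2.31-fold higher at day 28 than at day 14, while Spry3 lay below the background on all arrays.

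Other negative regulators of Ras and ERK were 2-fold apart about as often as all genes between days 28 and 6. Of 19 described, 1 was 2-fold higher and 1 lower at day 28 than at day 6, where 6.62% and 4.02% of all described genes were, with a median log2 difference of 0.19. In either step 0 were 2-fold apart. Of all described genes, 5.48% were 2-fold higher and 3.88% lower in the first step, and 2.18% and 1.44% in the second. Il17rd, a membrane inhibitor of growth factor signalling to ERK, read 25.14, 26.04 and 26.94 at days 6, 14 and 28 and stood 3.48-fold higher at day 28 than at day 6. Its dimmer probe set differed by 0.38. Pea15a, whose product holds ERK in the cytoplasm, was 2.21-fold lower at day 28 than at day 6.

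ERK target and immediate early genes other than the 10 went both ways. Between days 28 and 6, 1 of 20 described was 2-fold higher and 0 lower, with a median of -0.06, where 6.62% and 4.02% of all described genes were. Between days 14 and 6 there was 1 higher and 3 lower of 21, with a median of -0.19, where 5.48% and 3.88% of all were. Between days 28 and 14 there were 2 higher and 1 lower of 20, with a median of 0.17, where 2.18% and 1.44% of all were. Fos, an AP-1 subunit gene, read 25.54, 26.87 and 26.24 and stood 2.52-fold higher at day 14 than at day 6. Fosl1, another AP-1 subunit gene, read 26.27, 24.39 and 25.62, 3.67-fold lower at day 14 than at day 6 and 2.34-fold higher at day 28 than at day 14. The ETS factor gene Etv4 read 25.74, 24.65 and 25.67, with both steps just over 2-fold, while its other probe set differed by -0.22 and 0.21. Its relative Etv5 read 27.90, 28.59 and 28.97 and stood 2.10-fold higher at day 28 than at day 6. Plaur, the urokinase receptor gene, was 2.05-fold lower at day 14 than at day 6. Epha4, an ephrin receptor gene, was counted as 2-fold lower at day 28 than at day 14, and its brightest probe set was above the background at day 14 only, by 0.16. Another 3 of its probe sets were also above the background at day 14 alone, with differences, as measured, of 1.58 to 2.49 for day 14 minus day 6 and -3.64 to -2.46 for day 28 minus day 14.

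**Figure D4:**
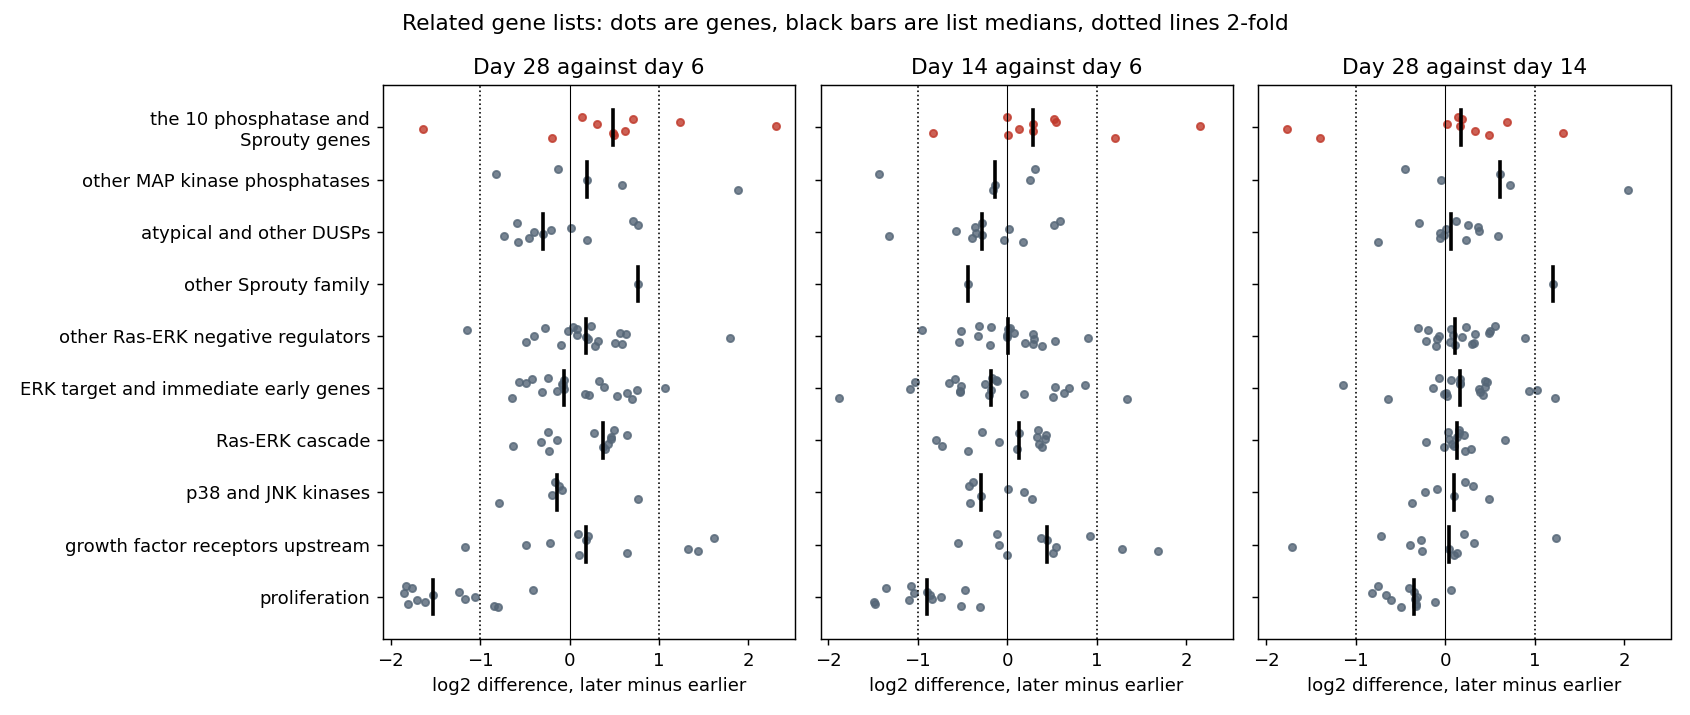
Log2 differences, later minus earlier (horizontal axis), of the 10 feedback genes (red, top row) and of 9 related gene lists (grey), for day 28 against day 6 (left), day 14 against day 6 (middle) and day 28 against day 14 (right). Each dot is a described gene, black bars are medians and dotted lines mark 2-fold. The median of the proliferation list is the lowest in each panel, and the 10 feedback genes run from -1.64 (Dusp8, as measured, below the background at day 28) to 2.31 in the left one.

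Of 20 genes of the kinase cascade, 13 were matched to a probe set, and 0 of these were 2-fold apart in any comparison on the brightest probe set, too few genes to read against the shares of all genes given before, with a median of 0.37 for day 28 minus day 6. Nras, the mouse gene that shares its name with the oncogene, read 26.92, 26.48 and 26.70 at days 6, 14 and 28 on its brightest probe set. Its other 2 probe sets differed by -0.48 and -0.83 for day 28 minus day 6 and by -0.79 and -1.12 for day 14 minus day 6. Thus 1 of the 3 probe sets was over 2-fold lower at day 14. Whether these detect the introduced NRAS61K was not tested. The p38 and JNK kinases, on which Dusp1 and Dusp8 act, and the kinases upstream of them, such as Map2k3 and Map2k4, had 0 of 6 to 7 described genes 2-fold apart. These too are too few to read against the shares of all genes. Among growth factor receptors, 3 of 11 were 2-fold higher and 1 lower at day 28 than at day 6, where 6.62% and 4.02% of all described genes were. The fibroblast growth factor receptor gene Fgfr1 read 26.01, 27.29 and 27.33, so it was 2.50-fold higher at day 28 and 2.43-fold higher at day 14 than at day 6, and the differences of its 3 probe sets lay within 0.26 of each other for day 28 and 0.21 for day 14. Fgfr2 read 24.77, 25.31 and 23.60 and was 3.28-fold lower at day 28 than at day 14. Erbb3, a receptor of neuregulin signalling, was 2.70-fold higher and Pdgfra, a platelet-derived growth factor receptor gene, 3.05-fold higher at day 28 than at day 6. The other probe sets of Erbb3 and Pdgfra lay below the background on all arrays and were not higher at day 28 than at day 6.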

How the data were processed

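The 3 mouse arrays were used, 1 each at 6, 14 and 28 days. The deposited table gives log2 values for 45101 probe sets, 64 being controls. The log2 base is inferred from the values, since hybridization controls gain 0.77 to 0.80 for each log2 step in concentration, and an added constant is likely, since the values run from 1.46 to 30.6. The sorted columns are identical, so the authors' deposited values are quantile normalized. How probes were summarized is not stated in these sources. Biotin-labelled cRNA was made from total RNA, per the labels' protocols.

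Probe sets were named by platform annotation, with symbols updated through GRCm38.p6 gene identifiers: 34958 had a single gene, 932 several and 9211 none listed. Precision is limited by the number of arrays. Genes other than the 10 are named when 2-fold apart within a related list, up to 4 per list, comparison and direction, along with Nras, cell type markers and the 5 genes nearest to the most variable of the 10. Further genes under 2-fold, in the closing observations and as examples of a list, were chosen after their values were seen. The 10 genes and the lists were chosen with earlier results of these data known. Alternatives covered the probe set, background, dim values, fold and scaling. Calculations used Python 3.11.15, numpy 2.4.6 and pandas 2.3.3, and the steps were tested on simulated data.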

Additional observations from a re-analysis of the deposited data

How the results depend on the processing

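Averaging the probe sets above the background left 1 gene 2-fold higher and 0 lower for day 28 against day 6, and 1 lower for day 28 against day 14. Spry4 and Dusp8 are the genes that dropped out, since their other probe sets differ less, and Dusp8 then differed by -0.83 and -0.93. At 1.5-fold the counts were 4 higher for day 28 against day 6, 1 lower for day 14 against day 6 and 2 higher for day 28 against day 14. At 3-fold they were 1 and 1 higher in the first 2 comparisons, and 0 higher and 1 lower in the third. Shifting the arrays to equal hybridization controls moved every difference by -0.08, -0.08 and 0.01 for day 28 against day 6, day 14 against day 6 and day 28 against day 14, and changed no count. Raising dim values to the background, which altered only Dusp8, changed no count either. The 75th percentile background and no filter on dim genes could not change a count, since all 10 genes were already described in each comparison. Leaving out shared probe sets could not either, since no brightest probe set of the 10 genes is marked as shared. Of 120 differences of single genes under the alternatives, 118 moved by less than the spread between probe sets. None of the called ones changed sign, and the 2 that moved were those of Dusp8. Most of the 120 could not move by that much, so the count says little about stability. The scaling shift is smaller than the spread, leaving out shared probe sets alters nothing, and averaging cannot alter genes with 1 probe set. An alternative silent gene list was not run. No paired analysis was possible because each time point has 1 array. Signal near the background limits the values of Dusp8 at day 28, Dusp5 at day 14 and Spry1 at day 6.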

Other observations

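Many ERK target and immediate early genes outside the set of 10 had their lowest value at day 14. Of 21 above the background on any array, 13 were lowest at day 14, among them Fosl1, Etv4, Plaur, Myc, Ccnd1, Ier3 and Hbegf, against 3933 of all 11658 genes (33.7%). Another 4 were highest at day 14, among them Fos and Egr1, where 26.6% of all genes were. Among the 10 feedback genes the counts were 2 lowest and 2 highest at day 14, while 6 were higher in each step, where 21.2% of all genes were. The direction of small steps is counted here too, and an error of the day 14 array alone moves such counts, so they are given as a description of these 3 arrays. Of the 13 cascade genes, 7 were higher in each step, including Braf, Araf, Map2k1 and Sos1, each under 2-fold, where 21.2% of all genes were. Of 13 proliferation genes, 12 were lower in each step, where 18.4% of all genes were. The courses were counted, and the genes here picked as examples, after the values were seen.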
